A study of Homo sapiens with 18 samples.

Results

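The subject is a set of 10 human genes that were read in HAP1 parental cells and were at or near 0 reads in 2 autophagy-gene knockout lines: FBXO17, RHOD, CHMP4C, AEBP1, COL11A1, DCAF12L2, HACD4, LTBR, CDH13 and FUT9. They were picked by name, out of 63677 gene identifiers counted, because WT libraries held their reads and both knockout lines held almost none in either medium. All 10 were matched in all 18 count tables. The loss of reads in the knockout lines is therefore what chose the genes, and it is described here without a test.

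HAP1 is an adherent, near-haploid human line that descends from KBM-7, a chronic myeloid leukaemia line. The series profiled polyadenylated RNA of 3 HAP1 lines: WT (parental), ATG7KO and RB1CC1KO. ATG7 is the E1-like enzyme of the autophagy conjugation systems, and RB1CC1, also known as FIP200, holds together the kinase complex with which autophagosome formation begins. Each line was sampled in full medium (IMDM with 10% fetal calf serum) and after 6 h of starvation in EBSS (Earle's balanced salts), without amino acids or serum. There were 3 independent replicates for each of the 6 groups. Each genotype was 1 line, so an effect of a knockout and a difference between the lines cannot be told apart. Neither the edited positions nor whether a line grew from 1 cell is given in the sources used here. In bulk RNA, fewer cells that express a gene and less RNA per cell cannot be told apart either.

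The 10 genes do not form a known pathway, and they fall into 5 kinds of role. COL11A1 and AEBP1 encode proteins of the extracellular matrix. LTBR and CDH13 encode proteins of the cell surface. FUT9 and HACD4 encode enzymes of the Golgi and the endoplasmic reticulum. RHOD and CHMP4C act in endosome traffic and membrane scission, and FBXO17 and DCAF12L2 encode substrate adaptors of cullin-based ubiquitin ligases. CpG dinucleotides in promoters, which are printed below, are the sites that DNA methylation acts on; no methylation was measured in this series.

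Reads in genes ranged from 11994110 to 19073798 in 16 of the libraries. The shallowest, ATG7KO EBSS replicate 3, had 4892072, and the deepest, RB1CC1KO EBSS replicate 2, had 26005942. ATG7 RNA stood at 15.6 ± 1.30 CPM (read counts scaled to a common library size by TMM; SD, n = 3) in WT and 4.02 ± 0.436 in ATG7KO in full medium, and at 16.1 ± 1.68 and 10.4 ± 0.533 after EBSS. RB1CC1 RNA was not lower in the libraries labelled RB1CC1KO (157 ± 12.7 CPM against 105 ± 10.3 in WT), so the RNA gives no check of that label and the line is called RB1CC1KO-labelled below. Of 12 haematopoietic markers, 3 (GATA1, HBG1 and CD3E) had no read in any library, and the leukocyte marker PTPRC had 6 reads in all. The summed level of that list in full medium was 57.7 to 68.6 CPM in WT, 20.0 to 20.8 in ATG7KO and 71.1 to 78.5 in the RB1CC1KO-labelled line. Most of it came from TAL1, RUNX1 and KIT, at 37.27, 13.45 and 10.92 CPM in WT. These stood at 9.918, 8.283 and 2.02 CPM in ATG7KO and at 51.45, 12.55 and 9.78 CPM in the RB1CC1KO-labelled line. The sum of 7 epithelial markers was 102 to 113, 62.7 to 67.2 and 72.0 to 82.0 CPM in the same order of lines. In WT most of that sum came from KRT18 (63.68 CPM in WT, 48.76 in ATG7KO and 57.63 in the RB1CC1KO-labelled line), KRT8 (26.86, 7.673 and 20.43) and ESRP1 (14.14, 8.757 and 0.1182). The sum of 8 fibroblast markers, of which DCN and LUM had no read, was 46.3 to 53.9, 53.9 to 54.3 and 20.8 to 23.4 CPM. Most of the fibroblast sum came from COL1A1 (23.28 CPM in WT, 20.19 in ATG7KO and 18.67 in the RB1CC1KO-labelled line) and PDGFRA (20.92, 32.28 and 2.886). The 6 endothelial markers summed to at most 0.496 CPM in any library, with PECAM1 at 0. The part of these differences in the results below was not tested.

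The genes lie on 10 different chromosomes: FBXO17 on chromosome 19, RHOD on 11, CHMP4C on 8, AEBP1 on 7, COL11A1 on 1, DCAF12L2 on X, HACD4 on 9, LTBR on 12, CDH13 on 16 and FUT9 on 6. Their structure varies from a single exon in DCAF12L2 to 67 exons in the longest COL11A1 transcript (GENCODE 29). RefSeq promoter windows, the 250 bases before the start site (GRCh38.p14), were found for 7 of the genes, with a pair of windows for FBXO17. CHMP4C, AEBP1 and CDH13 had no entry. Of the 8 windows, 3 held at least as many CpG dinucleotides as the median of 20 in the 16152 windows of the genes tested (quartiles 11 and 28): LTBR with 27, the first FBXO17 window with 26 and RHOD with 22. HACD4 had 18, DCAF12L2 16, COL11A1 and FUT9 11 each, and the second FBXO17 window 4. The letters GGGCGG, or CCGCCC for the other strand, were in 7 of the 8 windows and in 63.1% of the windows of tested genes. TATAAA, or TTTATA, was in 0 of 8 and in 6.06%. The second FBXO17 window, with the fewest CpG, also holds no annotated exon and is not printed. The windows of 4 other genes that hold no annotated exon are shown, as GRCh38.p14 sequence from RefSeq, and cover only 11 to 18 CpG: HACD4 (chr9:21031641-21031890, minus strand), DCAF12L2 (chrX:126166290-126166539, minus strand), COL11A1 (chr1:103108523-103108772, minus strand) and FUT9 (chr6:96015724-96015973, plus strand). Each runs 5′ to 3′ on the gene's strand, with every CpG in capitals.
HACD4: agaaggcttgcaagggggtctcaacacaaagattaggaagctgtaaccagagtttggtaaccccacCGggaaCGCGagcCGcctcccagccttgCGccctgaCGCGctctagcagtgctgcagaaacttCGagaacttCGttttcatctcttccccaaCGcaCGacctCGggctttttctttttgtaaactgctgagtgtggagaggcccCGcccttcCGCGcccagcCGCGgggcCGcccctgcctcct
DCAF12L2: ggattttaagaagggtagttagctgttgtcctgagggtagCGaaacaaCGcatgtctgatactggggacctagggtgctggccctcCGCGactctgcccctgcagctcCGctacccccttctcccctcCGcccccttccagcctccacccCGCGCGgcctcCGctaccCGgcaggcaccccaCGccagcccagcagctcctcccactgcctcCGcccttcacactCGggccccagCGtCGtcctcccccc
COL11A1: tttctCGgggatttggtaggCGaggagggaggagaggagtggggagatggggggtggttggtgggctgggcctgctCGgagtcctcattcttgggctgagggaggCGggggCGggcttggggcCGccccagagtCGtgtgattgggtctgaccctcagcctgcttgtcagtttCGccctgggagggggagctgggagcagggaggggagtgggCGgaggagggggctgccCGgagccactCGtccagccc
FUT9: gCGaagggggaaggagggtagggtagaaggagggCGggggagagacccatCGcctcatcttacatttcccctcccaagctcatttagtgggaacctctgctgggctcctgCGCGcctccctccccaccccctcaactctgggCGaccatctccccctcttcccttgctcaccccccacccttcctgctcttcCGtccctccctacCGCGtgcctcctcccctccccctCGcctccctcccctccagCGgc
The HACD4 and DCAF12L2 windows thus hold 18 and 16 marked sites, and COL11A1 and FUT9 hold 11 each in equally long sequence. The CpG counts of the 8 windows ran from below the lower quartile of tested genes to just under the upper one.

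In all 6 WT libraries together the 10 genes held 10748 reads, against 23 in the 6 ATG7KO libraries and 28 in the 6 RB1CC1KO-labelled libraries. RHOD, CHMP4C, DCAF12L2, CDH13 and FUT9 had no read in any of the 12 knockout libraries. COL11A1 was the only one with a read in all 12, and it supplied 62.7% of the knockout reads of the set. Each of the 4 comparisons of a knockout line with WT called these genes lower (edgeR quasi-likelihood F test, adjusted p below 0.05), with the exception of DCAF12L2 in ATG7KO after EBSS. This count is fixed by the choice of genes. Over all 15179 genes tested, the share called was 10.5% for ATG7KO in full medium (4.47% higher and 6.07% lower) and 17.2% for the RB1CC1KO-labelled line (8.3% higher and 8.87% lower). After EBSS it was 13.2% and 31.6%. The ATG7KO and RB1CC1KO-labelled comparisons share their WT libraries, and their values are set side by side.

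**Figure D1:**
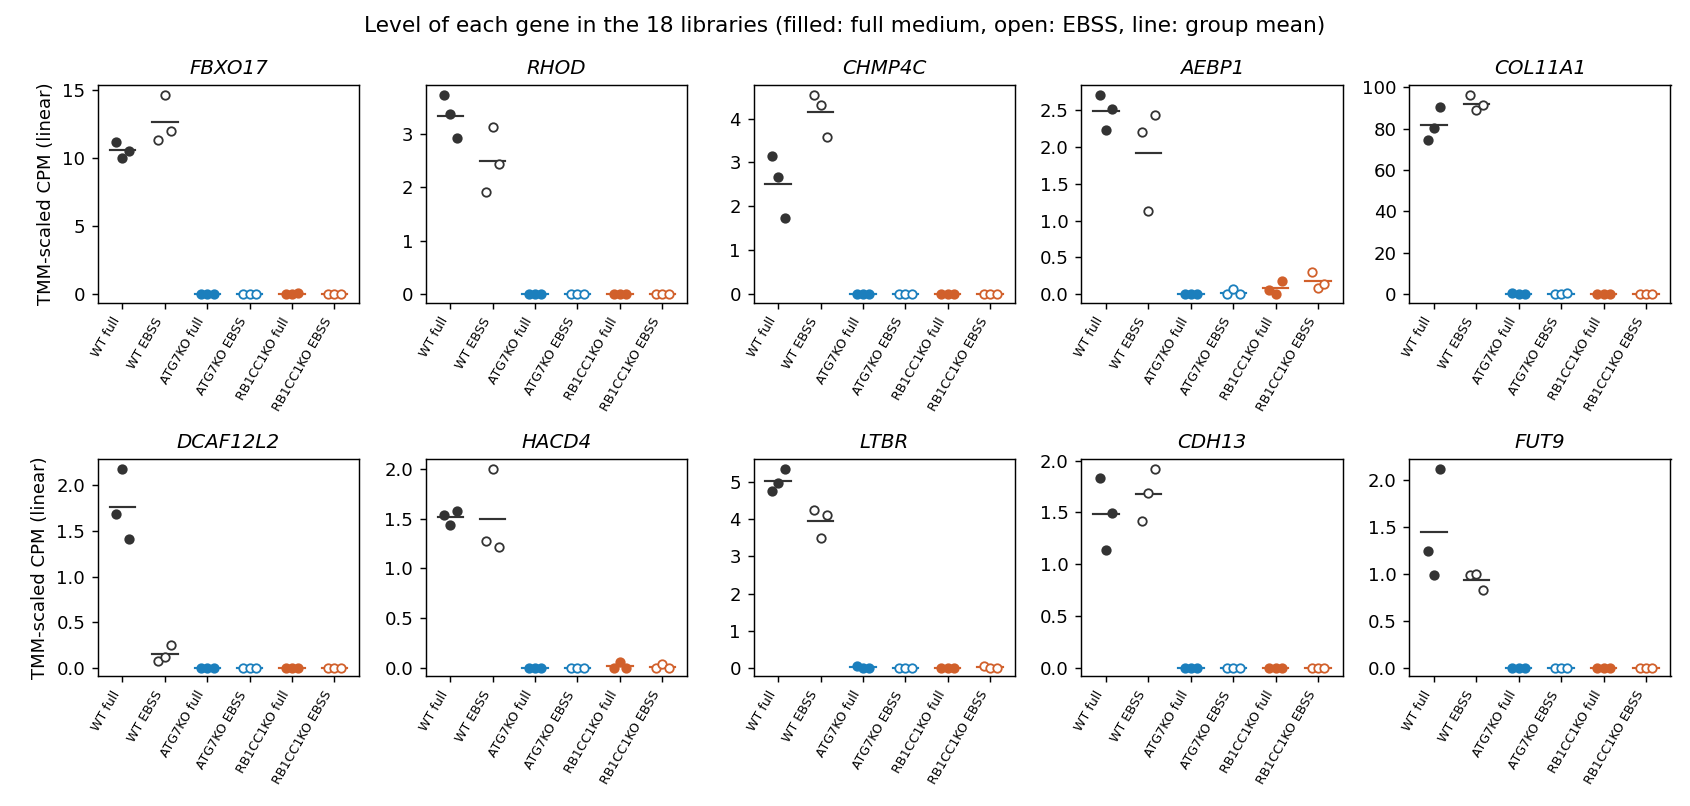
Level of each of the 10 genes in the 18 libraries, as TMM-scaled CPM on a linear axis that differs between panels; points are libraries (filled, full medium; open, EBSS) and lines are group means of 3. The 12 knockout points lie at or next to 0 in every panel, with small values above 0 visible for AEBP1, and DCAF12L2 is also low in WT after EBSS.

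Compared per kilobase of annotated exon, the order of the genes in WT in full medium ran from COL11A1 at 9.02 ± 0.891 CPM per kb down to FUT9 at 0.106 ± 0.0434 (SD, n = 3). RHOD at 2.64 ± 0.323, FBXO17 at 2.13 ± 0.122, CHMP4C at 1.35 ± 0.385, LTBR at 0.800 ± 0.0488, DCAF12L2 at 0.677 ± 0.150 and AEBP1 at 0.502 ± 0.0480 came between. HACD4 followed at 0.166 ± 0.00766 and CDH13 at 0.133 ± 0.0307. Of neighbours in this order, FUT9 and CDH13, and LTBR and DCAF12L2, did not differ beyond the larger of their SDs. Most of the set was thus weakly expressed in the parent, and COL11A1 was the one abundant RNA.

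COL11A1 (ENSG00000060718) encodes a chain of type XI collagen, a minor fibrillar collagen of cartilage that sets the width of collagen fibrils. It stood at 74.7, 80.6 and 90.7 CPM in the 3 WT libraries in full medium and at 96.4, 88.9 and 91.4 CPM after EBSS. All knockout libraries lay between 0.0563 and 0.424 CPM, which came from 1 to 7 reads each. In full medium the WT level was 286 times that of ATG7KO (95% interval for counting error only, 173 to 511) and 836 times that of the RB1CC1KO-labelled line (358 to 2580). After EBSS the ratios were 536 (246 to 1460) and 839 (385 to 2290). The residue was higher in ATG7KO (15 reads) than in the RB1CC1KO-labelled line (5 reads) in full medium, with overlapping intervals.

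AEBP1 (ENSG00000106624) encodes a secreted collagen-binding protein with an inactive carboxypeptidase domain. Its WT level was 2.71, 2.23 and 2.52 CPM in full medium and 2.20, 1.13 and 2.43 CPM after EBSS. It was the member with the most residual RNA relative to WT: the RB1CC1KO-labelled libraries held 1, 0 and 3 reads in full medium and 5, 2 and 2 after EBSS, and ATG7KO held 1 read in 6 libraries. WT was 31.4 times (11.9 to 117) the RB1CC1KO-labelled line in full medium and 11.6 times (5.82 to 26.2) after EBSS. Against ATG7KO, which had no read in full medium, WT was at least 42.9-fold higher, taking 3 counts over the group as the limit. A microRNA gene, MIR4649, overlaps an AEBP1 exon on the same strand.

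LTBR (ENSG00000111321) encodes the lymphotoxin beta receptor, which binds lymphotoxin heterotrimers and TNFSF14 and signals through noncanonical NF-kB. Its WT libraries stood at 4.75, 4.96 and 5.36 CPM in full medium and at 4.26, 3.50 and 4.10 CPM after EBSS. A single read was found in ATG7KO in full medium and a single read in the RB1CC1KO-labelled line after EBSS. WT was at least 85.4-fold higher than the RB1CC1KO-labelled line in full medium, and 263 times ATG7KO on the strength of 1 read (46.7 to 10400). An LTBR exon overlaps SCNN1A on the opposite strand, and the strand setting of the counting is not given in the sources used here.

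CDH13 (ENSG00000140945) encodes T-cadherin, an atypical cadherin that is held in the membrane by a lipid anchor. WT had 25, 23 and 19 reads in full medium and 20, 27 and 30 after EBSS, and no knockout library had 1. The bounds were at least 25.2-fold against ATG7KO and 24.6-fold against the RB1CC1KO-labelled line in full medium. An antisense gene overlaps 1 of its exons, with the same limit on strand.

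FUT9 (ENSG00000172461), a fucosyltransferase that makes the Lewis x glycan, was the lowest per kilobase in full medium. Its WT counts were 17, 20 and 27 reads in full medium and 14, 16 and 13 after EBSS. With no knockout read, WT was at least 24.1-fold higher than ATG7KO and at least 23.5-fold higher than the RB1CC1KO-labelled line in full medium. HACD4 (ENSG00000188921), a 3-hydroxyacyl-CoA dehydratase of very long chain fatty acid synthesis, had 21, 29 and 20 reads in WT in full medium and 18, 32 and 19 after EBSS. It had no ATG7KO read (at least 26.3-fold in full medium) and 1 read in each medium of the RB1CC1KO-labelled line, where the ratios were 77.0 (13.4 to 3080) and 82.6 (14.3 to 3310). For both genes the bounds are set by the low WT counts.

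RHOD (ENSG00000173156), a small GTPase of endosome movement and actin, stood at 3.73, 3.37 and 2.91 CPM in WT in full medium and 1.92, 3.13 and 2.43 CPM after EBSS. CHMP4C (ENSG00000164695), an ESCRT-III subunit that holds back the last step of cell division, stood at 3.14, 2.68 and 1.73 CPM and at 4.54, 4.32 and 3.59 CPM. Neither had a knockout read. In full medium the bounds were at least 58.7-fold (ATG7KO) and 57.2-fold (RB1CC1KO-labelled) for RHOD, and 44.7-fold and 43.6-fold for CHMP4C. A CHMP4C exon overlaps ZFAND1 on the opposite strand, and the log2 difference of ZFAND1 from WT in full medium was -0.00 in ATG7KO and -0.19 in the RB1CC1KO-labelled line, neither called. After EBSS ZFAND1 was called lower in the RB1CC1KO-labelled line, at 24.4 ± 1.27 CPM against 34.8 ± 2.82 in WT (-0.51 ± 0.09, adjusted p = 2.62e-05), and not in ATG7KO (-0.16 ± 0.09, 0.264).

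FBXO17 (ENSG00000269190), an F-box protein of the group that recognises glycoproteins, had 153, 201 and 134 reads in WT in full medium and 160, 234 and 187 after EBSS, or 10.6 ± 0.607 and 12.7 ± 1.75 CPM. It had 1 read in all 12 knockout libraries, in the RB1CC1KO-labelled line in full medium. WT was at least 183-fold higher than ATG7KO in full medium and at least 148-fold higher after EBSS, and at least 232-fold higher than the RB1CC1KO-labelled line after EBSS. Another protein-coding gene, AC011455.2, shares exon sequence with it on the same strand. DCAF12L2 (ENSG00000198354), an intronless relative of the CUL4 adaptor DCAF12, had 23, 44 and 18 reads in WT in full medium and 1, 2 and 4 after EBSS. Its bounds were at least 32.0-fold and 31.2-fold in full medium. After EBSS they were only 1.78-fold and 2.79-fold, since WT itself held 7 reads.

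**Figure D2:**
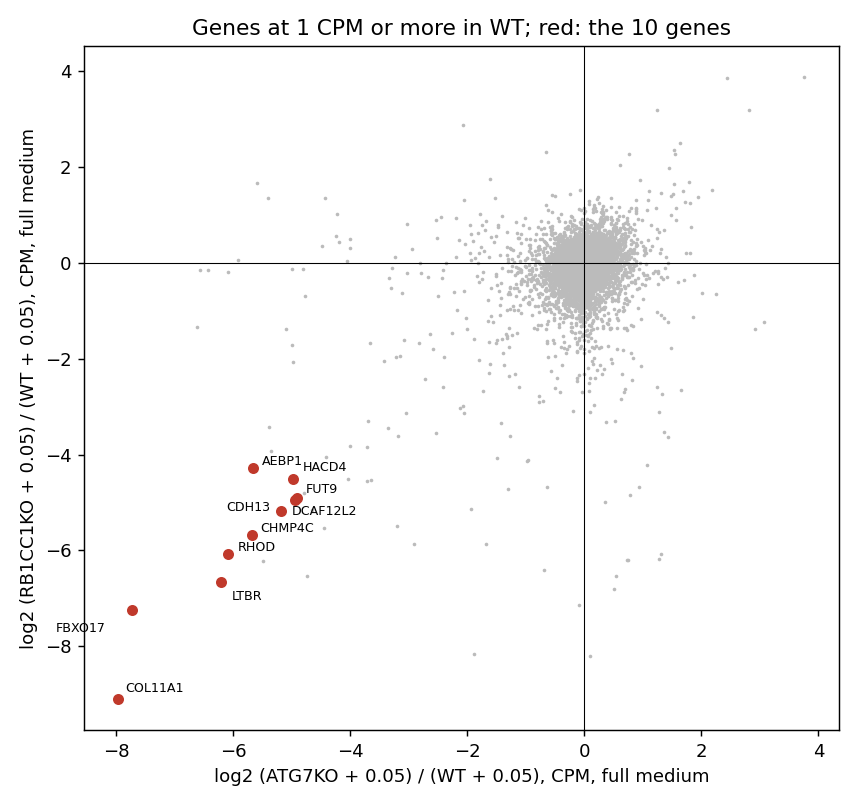
Log2 ratio of ATG7KO to WT (x axis) against that of the RB1CC1KO-labelled line to WT (y axis) in full medium, from mean CPM with 0.05 added, for genes at 1 CPM or more in WT; red points are the 10 genes. Both axes share the WT libraries, so the points are a description; the 10 genes lie at the lower left, COL11A1 farthest, while most genes lie near 0 on both axes.

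To place the set among all genes, those with a WT mean of at least 1 CPM in both media and a level of at most 5% of WT in all 4 knockout groups were counted. There were 12 of 12703 genes at that WT level, on 10 chromosomes, and 7 of them were members: COL11A1, FBXO17, LTBR, RHOD, CHMP4C, HACD4 and CDH13. The others were the zinc finger gene ZNF544, the GTPase RHOB, the exchange factor ARHGEF5, the cardiac homeobox gene NKX2-5 and the noncoding LINC02381. AEBP1 fell outside through its residue of 9.06% of WT, and DCAF12L2 and FUT9 through WT levels below 1 CPM after EBSS. With a WT minimum of 2 CPM the count was 7, and with 0.5 CPM it was 14. With a limit of 2% of WT it was 9, and with 10% it was 17. A further 8 genes met the limit in ATG7KO alone and 11 in the RB1CC1KO-labelled line alone (at least 50% of WT in the other line), among them S100A6 and GALNT5 in the first and ESRP1 and HCLS1 in the second. No gene showed the reverse by the same limits, at least 1 CPM in all 4 knockout groups with WT at most 5% of that level.

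The protein-coding genes whose log2(CPM + 1) followed the members' mean most closely over the 18 libraries were NMNAT2 (Pearson r = 0.990), CGREF1 (0.987), CHFR (0.987), ADAMTS12 (0.986), ZNF544 (0.979), THY1 (0.977), ARHGEF5 (0.976) and EPCAM (0.974). These libraries share lines and media, and the correlations describe that split into WT and knockout. NMNAT2, an NAD-synthesising enzyme, went from 2.78 CPM in WT to 0.0180 in ATG7KO and 0.215 in the RB1CC1KO-labelled line in full medium. CHFR, a mitotic checkpoint ubiquitin ligase, went from 6.69 to 0.114 and 0.391 CPM. THY1 and EPCAM are also among the fibroblast and epithelial markers above. The markers that made up most of those sums did not fall to near 0 in both lines. Within the set, the correlation of a member with the mean of the other 9 ran from 0.735 for DCAF12L2 to 0.998 for LTBR. The low value of DCAF12L2 goes with its 6 WT libraries, which the medium divides.

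The contrast of EBSS with full medium was not named in the choice of the members, and it was tested in WT. DCAF12L2 is an exception, since only WT in full medium gave it enough reads to pass the filter on low counts. Its fall is measured from that group, so its adjusted p is no independent support for a response. DCAF12L2 fell from 1.68, 2.18 and 1.42 CPM in full medium to 0.0709, 0.125 and 0.256 CPM after EBSS, a log2 fold change of -3.49 ± 0.52 (SE; edgeR adjusted p = 1.66e-06, lower in 3 of 3 libraries). CHMP4C was higher after EBSS, by 0.71 ± 0.27 on the log2 scale (adjusted p = 0.0225), and all 3 starved libraries lay above all 3 fed ones. The CHMP4C call depended on the setting: the adjusted p was 0.12 without WT full medium replicate 3, 0.0778 without WT EBSS replicate 1, 0.0617 without WT EBSS replicate 2, 0.07 with upper-quartile scaling and 0.0615 in DESeq2.

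**Figure D3:**
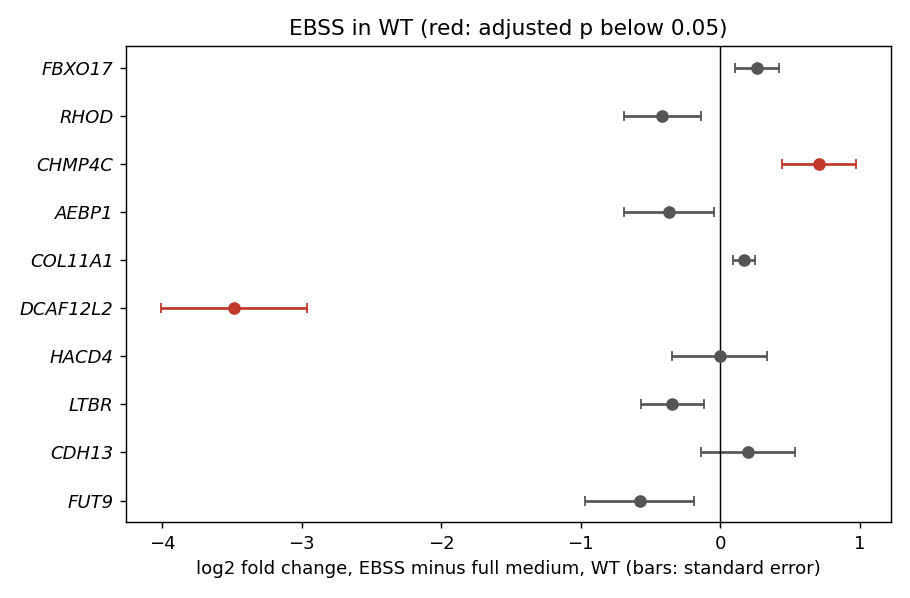
Log2 fold change of each of the 10 genes in WT after EBSS against full medium (x axis; points are the fitted values from 3 libraries a group, bars the standard error). DCAF12L2 lies at -3.49 and CHMP4C at 0.71, both in red for an adjusted p below 0.05, and the other 8 lie between -0.58 and 0.27.

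The other 8 members were not called. LTBR was at -0.35 ± 0.23 (adjusted p = 0.181) and FBXO17 at 0.27 ± 0.16 (0.14). In both the fed and starved libraries did not overlap. The share of all genes tested without such overlap was not counted, so nothing is read from it, here or for CHMP4C. COL11A1 was at 0.17 ± 0.08 (0.0666), and it was called without WT full medium replicate 3 (0.0182) and in a fit of the compared groups alone (0.046). RHOD was at -0.42 ± 0.27, AEBP1 at -0.37 ± 0.32, FUT9 at -0.58 ± 0.39, CDH13 at 0.20 ± 0.34 and HACD4 at -0.00 ± 0.34, with overlapping libraries. So 2 of 10 were called, 1 in each direction, where 64.5% of all genes tested were called (32.4% higher and 32.1% lower). The lower call is that of DCAF12L2, with the limit given above. The members' median absolute log2 change was 0.36, against 0.45 over all genes, and their standard errors, up to 0.52, reflect counts that are low for all of them except COL11A1. At this depth a change such as that of FUT9 could not be told from none.

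The genes were chosen for levels near 0 in both media, so their EBSS comparison within the knockout lines is a description. None of the 10 was called there by edgeR (0 at an unadjusted p below 0.05, and 0 in DESeq2, in each line), which the choice of genes fixes; of all genes, 62.9% were called in ATG7KO and 65.1% in the RB1CC1KO-labelled line, and nothing is read from the difference. AEBP1 went from 4 to 9 reads in the RB1CC1KO-labelled line, and COL11A1 from 5 to 6 reads there and from 15 to 6 in ATG7KO.

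The relatives and partners of the 10 genes show whether their families went silent with them. A list was taken for each gene, 133 genes in all, of which 100 were tested. In full medium 15 of the 100 were called in ATG7KO (6 higher, 9 lower) and 22 in the RB1CC1KO-labelled line (5 higher, 17 lower), against the 10.5% and 17.2% of all genes. Their median log2 difference was -0.03 and 0.01, against -0.00 and 0.02 over all genes. After EBSS 22 were called in ATG7KO (8 higher, 14 lower; 13.2% of all genes) and 36 in the RB1CC1KO-labelled line (12 higher, 24 lower; 31.6% of all genes). In full medium 2 relatives changed at least 2-fold in ATG7KO and 3 in the RB1CC1KO-labelled line: FBXO2 and RHOB in the first, and RHOB, COL5A2 and CDH3 in the second. After EBSS 2 did in ATG7KO, RHOB and FUT1 (-1.19, adjusted p = 1.52e-06), and 8 in the RB1CC1KO-labelled line. Of all 15179 genes tested, 407 were called at this limit in ATG7KO and 565 in the RB1CC1KO-labelled line in full medium. After EBSS the numbers were 425 and 867.

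**Figure D4:**
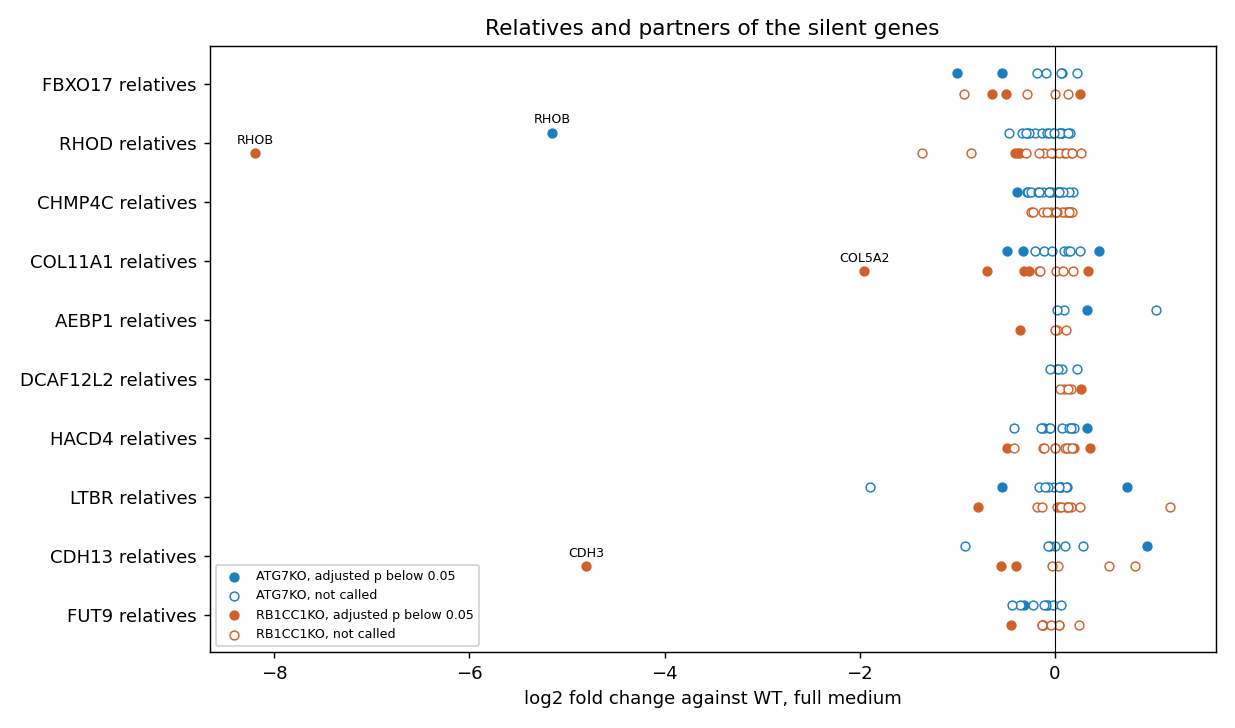
Log2 fold change against WT in full medium of the tested relatives of each silent gene (rows; ATG7KO above in blue, RB1CC1KO-labelled below in orange); filled points passed an adjusted p below 0.05. Most points lie close to 0, and RHOB, CDH3 and COL5A2 stand apart on the left.

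RHOB was lower in both lines. This gene encodes an endosomal GTPase that responds rapidly to stress, and it stood at 2.41, 2.53 and 1.89 CPM in WT in full medium, against 0, 0.108 and 0.0624 in ATG7KO and no read in the RB1CC1KO-labelled line. The log2 fold change in ATG7KO was -5.15 ± 0.50 (adjusted p = 9.46e-10), and WT was at least 39.6-fold higher than the RB1CC1KO-labelled line. After EBSS RHOB rose to 7.52, 10.4 and 9.67 CPM in WT (adjusted p = 1.86e-09). It also rose in the RB1CC1KO-labelled line, from 0 to 16 reads (adjusted p = 0.000191), while ATG7KO went from 3 to 8 reads (0.0588, not called). After EBSS the WT level was still 40.5 times (20.4 to 94.4) and 31.7 times (19.3 to 56.0) that of ATG7KO and of the RB1CC1KO-labelled line. RHOF at -0.41 ± 0.10 (adjusted p = 0.00301) and RHOU at -0.37 ± 0.11 (0.0193) were lower in the RB1CC1KO-labelled line. In ATG7KO they were at -0.29 ± 0.10 (0.0553) and 0.05 ± 0.11 (0.852), and RHOF was called there with no filter on low counts (0.0464), with a replicate block (0.0402), in a fit of the compared groups alone (0.0371) and without WT replicate 3 or ATG7KO replicate 3. The RHOU call was lost without WT full medium replicate 3 (adjusted p = 0.098) and without RB1CC1KO full medium replicate 2 (0.0808).

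Of the 7 tested F-box relatives and SCF core genes of FBXO17, 2 were called in ATG7KO in full medium, both lower. In the RB1CC1KO-labelled line 3 were called, 1 higher and 2 lower. These are 28.6% and 42.9% of the list, against 10.5% and 17.2% of all genes. FBXO44 went from 27.4 ± 3.19 CPM in WT to 18.8 ± 1.06 in ATG7KO (-0.54 ± 0.10, adjusted p = 0.000251) and 19.4 ± 2.22 in the RB1CC1KO-labelled line (-0.50 ± 0.10, adjusted p = 0.000478). FBXO2, which binds high-mannose glycans, was lower in ATG7KO, at 3.50 ± 0.435 CPM against 7.04 ± 1.45 in WT (adjusted p = 9.77e-05), and FBXO6 in the RB1CC1KO-labelled line (-0.64 ± 0.18, adjusted p = 0.0112). FBXO27, which is both a relative and the next gene, stood at 1.14 ± 0.136 CPM in WT, 0.995 ± 0.147 in ATG7KO and 0.590 ± 0.171 in the RB1CC1KO-labelled line in full medium and was not called. The FBXO6 call was lost without WT full medium replicate 1 (0.0513) and without RB1CC1KO full medium replicate 2 (0.0522). Of the 5 tested genes in the DCAF12 and CUL4 list of DCAF12L2, 0 were called in ATG7KO (edgeR; 0 at an unadjusted p below 0.05, 0 in DESeq2), and CUL4A, the cullin scaffold, was higher in the RB1CC1KO-labelled line by 0.27 ± 0.06 (adjusted p = 0.000592).

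All 17 ESCRT-III genes and partners of CHMP4C were tested. In full medium 0 were called in the RB1CC1KO-labelled line by edgeR and 0 by DESeq2, with 3 at an unadjusted p below 0.05, where 17.2% of all genes were called. After EBSS 3 were lower in each line (17.6% of the list, against 13.2% and 31.6% of all genes). In ATG7KO in full medium 2 were lower: ZFYVE19, the abscission regulator that binds CHMP4C, at -0.39 ± 0.09 (adjusted p = 0.00424), and CHMP1A at -0.28 ± 0.09 (adjusted p = 0.0423). The CHMP1A call was lost without any 1 of 4 libraries (WT replicates 1 and 3, ATG7KO replicates 1 and 2; adjusted p from 0.0758 to 0.217). A paralogue of CHMP4C, CHMP4B, stood at 82.2, 86.9 and 83.2 CPM in WT, at 88.8, 89.8 and 81.0 in ATG7KO and at 98.7, 90.8 and 94.1 in the RB1CC1KO-labelled line in full medium. CHMP4B was called in neither line.

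Among 10 tested fibrillar collagens and processing enzymes, relatives of COL11A1, COL5A2 was lower in both lines. It encodes a chain of type V collagen and stood at 30.0, 29.2 and 31.8 CPM in WT, 20.4, 23.9 and 20.3 in ATG7KO (-0.49 ± 0.10, adjusted p = 0.000391) and 7.43, 8.16 and 7.89 in the RB1CC1KO-labelled line (-1.95 ± 0.11, adjusted p = 1.86e-16). COL24A1 was lower in the RB1CC1KO-labelled line (-0.70 ± 0.20, adjusted p = 0.0144), a call lost without WT full medium replicate 3 (0.0792) and without RB1CC1KO full medium replicate 2 (0.104). PCOLCE, an enhancer of procollagen processing, was higher in ATG7KO (0.46 ± 0.14, adjusted p = 0.0353), and without any 1 of 5 libraries (WT replicates 1, 2 and 3, ATG7KO replicates 2 and 3) the adjusted p was 0.0631 to 0.136. CPE, the carboxypeptidase related to AEBP1, was higher in ATG7KO by 0.33 ± 0.08 (adjusted p = 0.00318) and lower in the RB1CC1KO-labelled line (-0.36 ± 0.08, adjusted p = 0.00133).

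Of 7 tested cadherins, CDH3 (P-cadherin) moved in opposite directions. It stood at 16.2, 11.3 and 11.1 CPM in WT, at 26.1, 25.7 and 22.3 in ATG7KO (0.95 ± 0.13, adjusted p = 1.52e-06) and at 0.413, 0.225 and 0.728 in the RB1CC1KO-labelled line (-4.81 ± 0.24, adjusted p = 1.07e-17). The 3 groups did not overlap. CDH6 (-0.55 ± 0.06, adjusted p = 4.87e-09) and CDH24 (-0.39 ± 0.09, adjusted p = 0.00132) were lower in the RB1CC1KO-labelled line.

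Of 12 tested genes of the pathway around LTBR, 2 were called in ATG7KO and 1 in the RB1CC1KO-labelled line in full medium (16.7% and 8.33%, against 10.5% and 17.2% of all genes). NFKB2, the precursor of the noncanonical NF-kB subunit, was lower in ATG7KO (-0.54 ± 0.08, adjusted p = 6.87e-06). TNFRSF1B, a TNF receptor, was higher in ATG7KO (0.74 ± 0.20, adjusted p = 0.00982) and lower in the RB1CC1KO-labelled line (-0.78 ± 0.22, adjusted p = 0.0121). The first call was lost without WT full medium replicate 2 (0.0517) and the second without WT full medium replicate 1 (0.0643). LTA, a subunit of the ligand that LTBR binds, was at 2.34, 2.00 and 3.01 CPM in WT after EBSS, at 2.78, 2.78 and 2.33 in ATG7KO and at 5.51, 6.65 and 5.48 in the RB1CC1KO-labelled line. In full medium LTA had 1 read in WT, 0 in ATG7KO and 3 in the RB1CC1KO-labelled line. The RNA of the ligand subunit was thus present after EBSS in both lines that held at most 1 LTBR read per medium.

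In the fatty acid elongation cycle of HACD4, ELOVL6 was higher in both lines in full medium, by 0.34 ± 0.07 (adjusted p = 0.000568) and 0.36 ± 0.07 (adjusted p = 0.000156). The dehydratase HACD1 was lower in the RB1CC1KO-labelled line (-0.49 ± 0.12, adjusted p = 0.00414), and ELOVL2 was higher there by 0.20 ± 0.07 (adjusted p = 0.0423). Without WT replicate 1 or 3, or RB1CC1KO replicate 2 or 3, the ELOVL2 call was lost (0.0946 to 0.18), and it was also lost in DESeq2 (0.0526), with RLE scaling (0.0567), with upper-quartile scaling (0.0658), with no filter (0.125) and in a fit of the compared groups (0.114). Of the 9 tested genes of fucose transfer around FUT9, SLC35C1, the Golgi GDP-fucose carrier, was lower in ATG7KO (-0.32 ± 0.09, adjusted p = 0.0215) and FUT11 in the RB1CC1KO-labelled line (-0.45 ± 0.15, adjusted p = 0.0311). Each was lost without any 1 of 4 libraries: for SLC35C1 WT replicates 1 and 3 and ATG7KO replicates 2 and 3 (0.0673 to 0.154), and for FUT11 WT replicates 1 and 3 and RB1CC1KO replicates 2 and 3 (0.0572 to 0.177).

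The nearest 2 protein-coding genes on each side were taken to see whether the loss extended along the chromosome. Of the 40 neighbours, 39 were matched and 25 were tested. In full medium 5 were called in ATG7KO (2 higher, 3 lower) and 6 in the RB1CC1KO-labelled line (4 higher, 2 lower), and after EBSS 1 and 12. Over all genes the shares called were 10.5% and 17.2% in full medium and 13.2% and 31.6% after EBSS, to be set against 5 and 6, and 1 and 12, of 25. In full medium the neighbours changed at least 2-fold were OLFM3 in both lines and TENM1 in the RB1CC1KO-labelled line. Of all 15179 genes tested, 407 were called at this limit in ATG7KO and 565 in the RB1CC1KO-labelled line. OLFM3, next to COL11A1, encodes a secreted olfactomedin-domain protein. OLFM3 stood at 12.4, 15.9 and 13.9 CPM in WT in full medium, at 2.73, 1.95 and 2.00 in ATG7KO (-2.66 ± 0.17, adjusted p = 2.1e-14) and at 5.43, 4.73 and 4.92 in the RB1CC1KO-labelled line (-1.49 ± 0.15, adjusted p = 2.5e-09). After EBSS the differences were -2.44 ± 0.21 and -1.25 ± 0.17. RNPC3, on the other side of COL11A1, was at -0.09 and -0.26 in full medium and was called in neither line. After EBSS it was called lower in the RB1CC1KO-labelled line (-0.41 ± 0.12, adjusted p = 0.00731), a call lost without WT EBSS replicate 1 (0.0635) and without RB1CC1KO EBSS replicate 1 (0.0979).

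After EBSS 5 neighbours changed at least 2-fold in the RB1CC1KO-labelled line (867 of all 15179 genes), against OLFM3 alone in ATG7KO (425 of all 15179). Besides OLFM3 they were FBXO27 next to FBXO17 (-2.15 ± 0.44, adjusted p = 0.00021), MLYCD near CDH13 (-1.28 ± 0.23, adjusted p = 4.81e-05), SLC10A5 near CHMP4C (-1.17 ± 0.34, adjusted p = 0.00858) and TENM1 near DCAF12L2, which was higher (1.31 ± 0.21, adjusted p = 6.38e-06). The SLC10A5 call was lost without WT EBSS replicate 3 (0.0827) and without RB1CC1KO EBSS replicate 3 (0.0535).

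**Figure D5:**
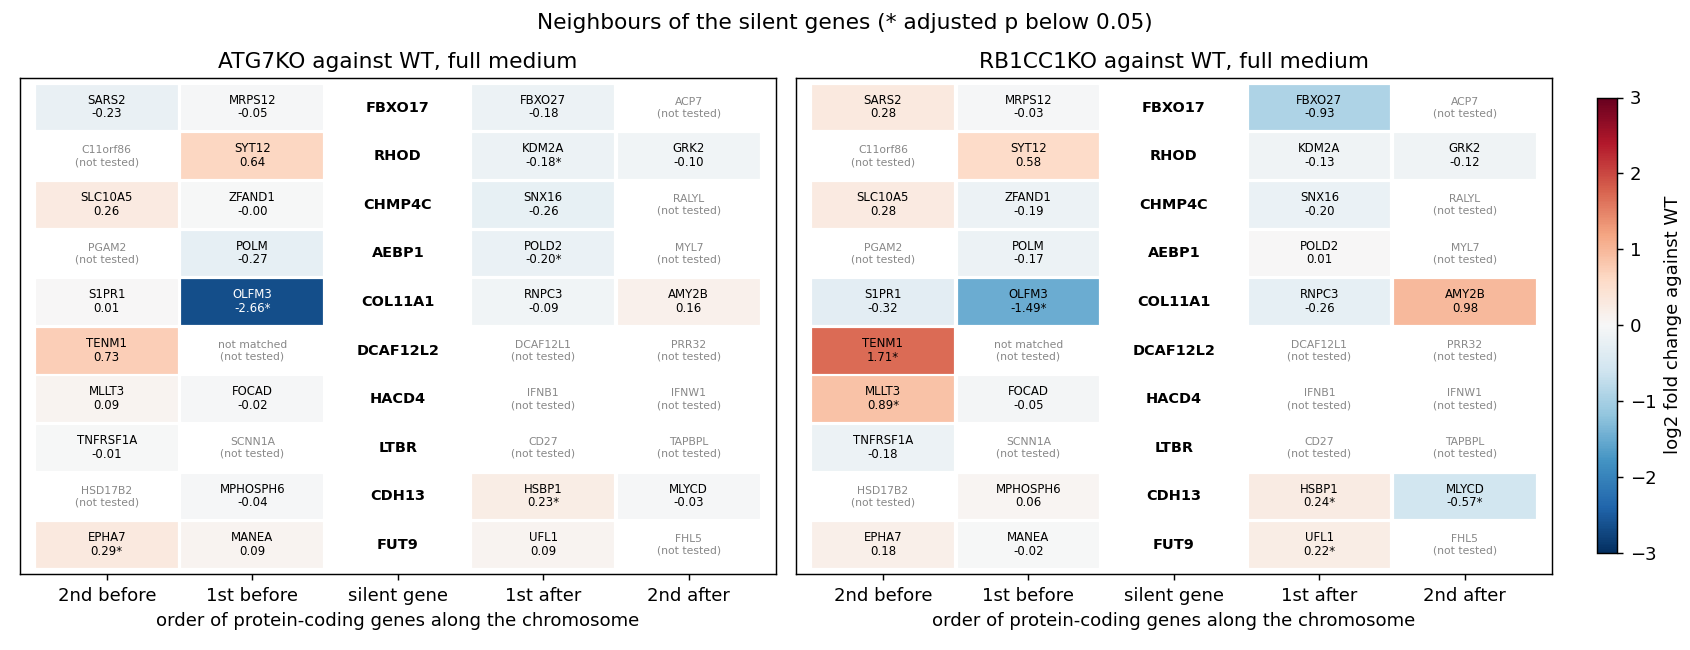
Log2 fold change against WT in full medium of the 2 protein-coding genes on each side of each silent gene, in chromosome order (columns) for ATG7KO (left) and the RB1CC1KO-labelled line (right); colour shows the fold change, an asterisk an adjusted p below 0.05, and grey names were not tested. OLFM3 beside COL11A1 is low in both panels, TENM1 is high on the right, and most cells are pale.

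The next calls are those in full medium. TENM1, the second gene before DCAF12L2, was higher in the RB1CC1KO-labelled line by 1.71 ± 0.35 (adjusted p = 0.000476), and MLLT3, near HACD4, by 0.89 ± 0.12 (adjusted p = 1.29e-06). HSBP1, next to CDH13, was slightly higher in both lines, by 0.23 ± 0.06 (adjusted p = 0.0101) and 0.24 ± 0.06 (adjusted p = 0.00472), and the next gene, MLYCD, was lower in the RB1CC1KO-labelled line (-0.57 ± 0.16, adjusted p = 0.0106). The HSBP1 call in ATG7KO was lost without WT replicate 1, WT replicate 3 or ATG7KO replicate 2 (0.0542 to 0.077), and that of MLYCD without RB1CC1KO replicate 1 (0.0549). KDM2A beside RHOD (-0.18 ± 0.06, adjusted p = 0.0339), POLD2 beside AEBP1 (-0.20 ± 0.07, adjusted p = 0.0493) and EPHA7 near FUT9 (0.29 ± 0.09, adjusted p = 0.0379) were called in ATG7KO, and UFL1 beside FUT9 (0.22 ± 0.07, adjusted p = 0.0376) in the RB1CC1KO-labelled line. Each of these 4 calls was lost without any 1 of 5 of the 6 libraries compared, with adjusted p up to 0.131 for KDM2A, 0.209 for POLD2, 0.141 for EPHA7 and 0.251 for UFL1. The exceptions were WT replicate 2 for KDM2A and UFL1 and WT replicate 3 for POLD2 and EPHA7. After EBSS HSBP1 was called in neither line, at 0.04 ± 0.06 in ATG7KO (adjusted p = 0.754) and 0.04 ± 0.06 in the RB1CC1KO-labelled line (0.643). POLD2 was then called higher in the RB1CC1KO-labelled line (0.27 ± 0.07, adjusted p = 0.0017) and not called in ATG7KO (0.01 ± 0.07, 0.97).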

How the data were processed

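Per the labels' protocols, polyadenylated RNA of 18 HAP1 samples was made into directional libraries and read from 1 end over 75 bp. The values deposited by the authors are raw read counts, in a file per library with 63677 Ensembl identifiers and 5 summary lines, which were left out here. The submitters' processing notes list GRCh37 (hg19), HTSeq 0.6.1p1, STAR 2.4.2a, DESeq2, edgeR and Picard, in roles that are not stated. Neither the strand setting nor the annotation release is given in the sources used here.

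The genes and lists were chosen with earlier results of these data known. Names and exons came from GENCODE 29 (GRCh38, which matched 52526 identifiers) and promoters from RefSeq (GRCh38.p14). Groups came from the sample labels. In R 4.3.3, edgeR 4.0.16 with limma 3.58.1 kept 15179 genes (filterByExpr), scaled libraries by TMM and fitted 1 quasi-likelihood model with 6 group means to all 18 libraries. Calls used a Benjamini-Hochberg adjusted p below 0.05 over all genes tested, and every adjusted p comes from that test unless another is named. SE is the log2 fold change divided by the square root of F. The fit was tested on simulated counts.

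A group with no reads was set to 3 counts for a bound; other ratios have exact 95% intervals that cover counting error only. Named relatives were up to 3 per list with the largest change among those called in full medium, named neighbours all those called, and likeness took the 8 highest correlations. CHMP4B, RNPC3, ZFAND1, FBXO27, SLC10A5, FUT1, LTA and the genes named from the count of near-silent genes were chosen after their values were seen. Alternatives were other scalings, no filter, a replicate block, the compared groups alone, DESeq2 1.42.0 and leaving out each library. The count of 1 list of relatives is not reported here.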

Additional observations from a re-analysis of the deposited data

Results flagged for a closer look

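Relatives of the silent genes were flagged where the 2 knockout lines were called in opposite directions against WT in full medium. There were 3 of them among the 100 relatives tested, and the share of such genes over all genes tested was not counted. The difference between the lines was fitted directly (edgeR quasi-likelihood F test, added after the data were seen). Opposite calls in these same libraries chose the 3 genes, so a low adjusted p was fixed by that choice. The values give the size of the difference and are no further support for it. CDH3 was lower in the RB1CC1KO-labelled line than in ATG7KO by a log2 difference of -5.76 ± 0.22 (adjusted p = 2.85e-21), TNFRSF1B by -1.52 ± 0.21 (adjusted p = 4.79e-07) and CPE by -0.69 ± 0.08 (adjusted p = 1.13e-08). CPE stood at 30.5 ± 2.49 CPM in WT, 38.4 ± 1.35 in ATG7KO and 23.8 ± 0.966 in the RB1CC1KO-labelled line (SD, n = 3).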

How the results depend on the processing

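The count of members called for EBSS in WT was 2, and 1 with upper-quartile scaling and in DESeq2 (1 to 2 when 1 library was left out), through CHMP4C. No call was reversed. Leaving out 1 library each gave 1060 to 1463 genes called in ATG7KO in full medium (1599 with all; 1060 without WT replicate 1) and 1 to 3 neighbours (5 with all; 2 with no filter on low counts). It gave 14 to 23 relatives called in the RB1CC1KO-labelled line in full medium (22 with all; 14 without RB1CC1KO replicate 2). In ATG7KO after EBSS it gave 1237 to 1927 genes (2010 with all; 1237 without ATG7KO replicate 2), 11 to 18 relatives (22 with all; 11 without ATG7KO replicate 2) and 1 to 2 neighbours (1 with all). The cause was not tested, beyond the smaller number of libraries. The count of genes near 0 in both lines was 12 without ATG7KO EBSS replicate 3, the shallowest library (no other was left out for it). It was 7 at a WT minimum of 2 CPM and 14 at 0.5 CPM, and 9 and 17 at limits of 2% and 10% of WT. Upper-quartile scaling put the median gene for EBSS in WT at -0.17 in place of -0.02 and 37.4% of calls higher in place of 50.3%, so small EBSS changes such as that of COL11A1 are relative to the scaling. Replicate numbers were not treated as pairs. Each library's deviations from its group mean, in log2 CPM over the genes tested, were correlated between the 2 groups of a comparison. The correlations ran from -0.084 to 0.221 for same-numbered libraries and from -0.169 to 0.108 for different-numbered ones. This does not settle whether the numbers pair the samples. With a replicate block, 9939 genes in place of 9788 and 2 members were called for EBSS in WT. In full medium the block gave 1863 genes in place of 1599 in ATG7KO and 2933 in place of 2606 in the RB1CC1KO-labelled line. Among single genes, 1827 values kept their side of the threshold, 96 lost and 21 gained a call.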
